A study of Homo sapiens with 8 samples.

Results

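The expression of 39 genes of the G2 phase and mitosis was examined in Panc 10.05, an established cell line of human pancreatic ductal adenocarcinoma, with and without overexpression of ELAPOR1. The genes were chosen by symbol from textbook roles in mitotic entry, the spindle, its checkpoint, chromosome segregation and cytokinesis. The choice was made with earlier results of these data known, so shares of called genes below describe a list not independent of the data. All 39 genes were found among the 58870 genes of the deposited table. Bulk RNA sequencing had been done on 4 libraries of control Panc 10.05 cells and 4 libraries of Panc 10.05 cells overexpressing ELAPOR1, a transmembrane protein of endosomes and lysosomes. How ELAPOR1 was introduced, what the control cells carried, and whether either line was a clone or a pool are not given in the sources used here. The labels number the replicates 1 to 4 in each group but do not say that they were separate cultures, so the p-values measure the spread between these libraries, which may be technical.

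Total counts ran from 16558600 to 18128757 per control library and from 13765509 to 17258166 per ELAPOR1 library. ELAPOR1 itself (listed as KIAA1324) had 1 to 4 counts in the control libraries and 5910 to 7368 in the ELAPOR1 libraries, so all 8 libraries matched their labels. The 6 epithelial markers EPCAM, CDH1, KRT7, KRT8, KRT18 and KRT19 were present in every library and summed to 11929 to 13196 CPM (counts per 1e6 counts, scaled between libraries) in control and 11159 to 11510 CPM in ELAPOR1 libraries. The sum is dominated by KRT8 and KRT18, which were lower in all ELAPOR1 libraries than in all control libraries. KRT7, KRT19 and CDH1 were higher in all ELAPOR1 libraries, and EPCAM overlapped. By edgeR 3 of these 6 genes were called higher, 2 lower and 1 was not called. The summed fibroblast markers stayed at or under 4.32 CPM, with COL1A2, DCN and LUM at 0, and the endothelial markers at or under 2.13 CPM, with CDH5 at 0. The 4 leukocyte markers summed to 81.8 to 88.0 CPM in control and 72.7 to 78.9 CPM in ELAPOR1 libraries, nearly all from CD68, with CD3E at 0. The part of these marker levels in the results below was not tested. Control replicates 1 and 4 were the most unlike pair of libraries within a group.

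Cells enter mitosis when cyclin B bound to CDK1 is switched on by CDC25 phosphatases, and they leave it when the anaphase-promoting complex marks cyclin B and securin for destruction. Most of the genes for this machinery are transcribed together late in the cycle by a relay of B-MYB, FOXM1 and the MuvB core, which binds promoters at a short element called the cell cycle genes homology region (CHR), often near CCAAT boxes that bind NF-Y. In dividing carcinoma cells these transcripts are abundant. In bulk RNA a larger share of cells in G2 and mitosis and more RNA per such cell cannot be told apart.

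The G2/M genes did not move as a block. Of the 39 genes, 18 rose in ELAPOR1 cells, 5 fell and 16 did not pass the test (edgeR quasi-likelihood test, Benjamini-Hochberg adjusted p under 0.05 over 13860 tested genes). The 23 called genes made up 59.0% of the set, beside 44.7% of all tested genes. The 18 that rose were 46.2%, beside 22.6%, and the 5 that fell were 12.8%, beside 22.1%. Well-expressed genes were called more often, and among the 5105 tested genes with a mean level at or above that of the lowest G2/M gene, 33.3% rose and 27.6% fell. All 39 genes passed the filter on low counts, with 538 to 15535 counts in every library, so none entered through one group alone.

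The changes were small. Log2 fold changes ran from -0.29 (CDC25C) to 0.51 (PLK1), with a median of 0.074 beside 0.00087 over all tested genes, and all 23 called genes changed by less than 1.5-fold. The standard errors ran from 0.0281 to 0.0682. The groups were free of overlap in CPM for 20 genes (51.3%, beside 39.2% of all tested genes), 15 of them higher and 5 lower in ELAPOR1. Tested against a change of 1.2-fold, 5 genes were called (12.8%, beside 11.1% of all tested genes), namely PLK1, MKI67, TOP2A, ANLN and KIF11.

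As a share of scaled counts, the 39 genes took 0.793 ± 0.0136% in control and 0.882 ± 0.00880% in ELAPOR1 libraries (means with the SD of 4 libraries). Their summed level was 8085, 7988, 7846 and 7784 CPM in control replicates 1 to 4 and 8800, 8855, 8706 and 8913 CPM in ELAPOR1 replicates 1 to 4. All 4 ELAPOR1 sums lay above all 4 control sums, a mean rise of 11.3%. A sum gives most weight to abundant genes, such as MKI67 (mean 663 to 879 CPM) and ANLN (526 to 671 CPM). The median log2 fold change of the 39 genes was 0.074. The 18 genes called higher went, as a sum, from 4455 ± 133 to 5372 ± 65.0 CPM and the 5 called lower from 695 ± 23.9 to 612 ± 14.8 CPM, sums that follow from the calls. The 16 uncalled genes went from 2776 ± 23.5 to 2835 ± 18.1 CPM, 2.11% more.

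**Figure D1:**
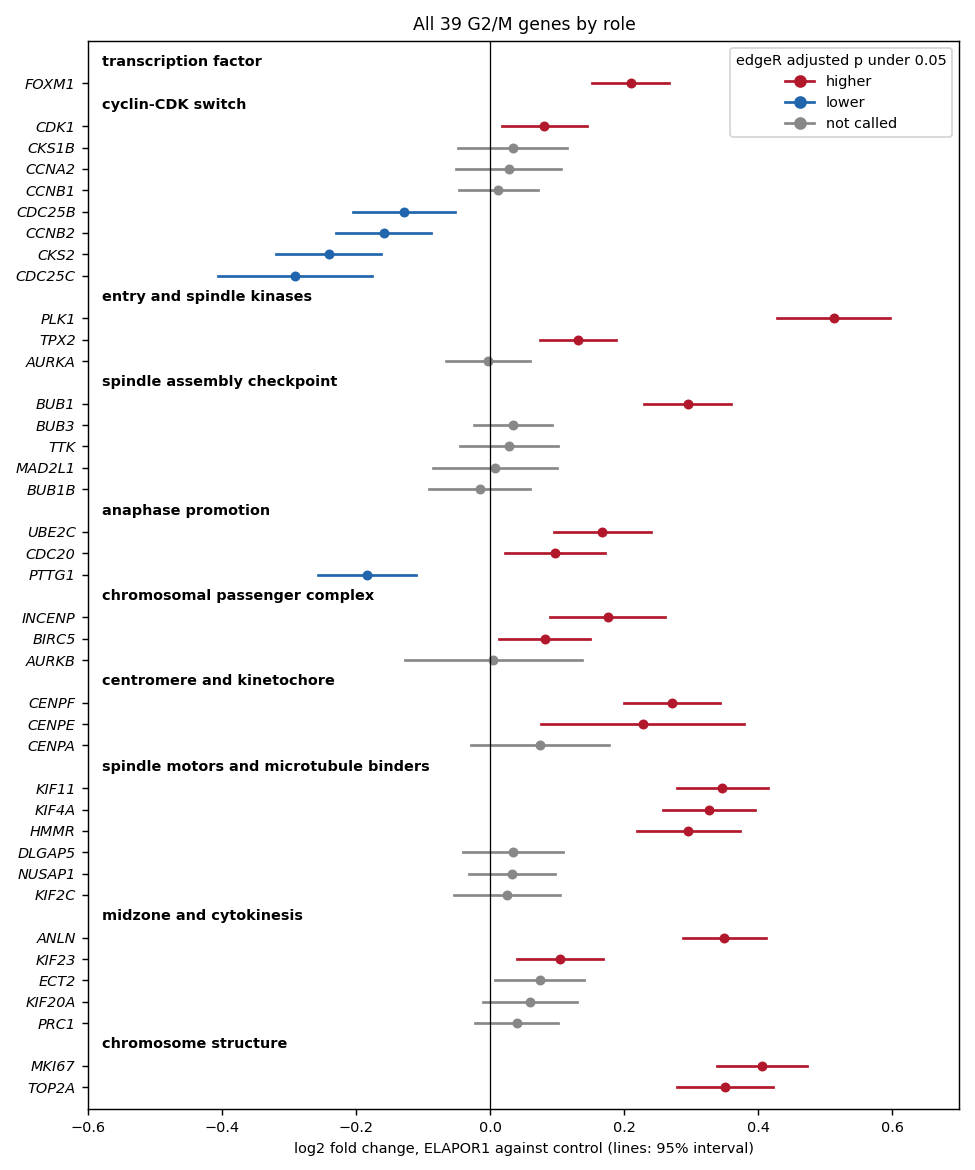
Log2 fold change (x axis, ELAPOR1 against control, 4 libraries each) of all 39 G2/M genes, grouped by role, with points for the estimate and lines for the 95% interval. Estimates run from -0.29 for CDC25C to 0.51 for PLK1, and 4 of the 5 lower genes sit in the cyclin-CDK switch.

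The promoters of these genes were searched for sequence elements of late cell cycle genes. RefSeq promoter windows (GRCh38.p14, 250 bases before to 50 bases after an annotated start) were at hand for 32 of the 39 genes and were read on both strands for the CHR core (TTTGAA or TTCGAA), the CCAAT box (CCAAT) and E2F cores (TTTCCCGC, TTTGGCGC or TTTCGCGC). The 7 stretches below are the 150 bases before the start, written 5′ to 3′ on the strand of the gene, with CHR cores and CCAAT boxes in capitals on either strand (read on the other strand, the elements appear as TTCAAA and ATTGG). In MKI67 a CHR core and a CCAAT box overlap. The stretches were chosen to set genes that rose (PLK1, MKI67, KIF11) beside genes that fell (CCNB2, CKS2) and genes that were not called (CKS1B, CCNA2).
PLK1 (chr16:23678739-23678888, plus strand): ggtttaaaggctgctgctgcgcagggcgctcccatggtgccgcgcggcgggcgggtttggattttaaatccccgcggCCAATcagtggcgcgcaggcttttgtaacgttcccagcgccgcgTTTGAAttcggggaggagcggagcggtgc
MKI67 (chr10:128126424-128126573, minus strand): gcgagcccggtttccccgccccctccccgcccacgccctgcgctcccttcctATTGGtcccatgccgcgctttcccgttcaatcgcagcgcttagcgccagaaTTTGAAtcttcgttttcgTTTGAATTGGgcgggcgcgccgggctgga
KIF11 (chr10:92592980-92593129, plus strand): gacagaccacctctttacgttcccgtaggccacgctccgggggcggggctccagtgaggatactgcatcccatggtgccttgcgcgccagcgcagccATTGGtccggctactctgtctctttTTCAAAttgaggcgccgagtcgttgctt
CCNB2 (chr15:59104996-59105145, plus strand): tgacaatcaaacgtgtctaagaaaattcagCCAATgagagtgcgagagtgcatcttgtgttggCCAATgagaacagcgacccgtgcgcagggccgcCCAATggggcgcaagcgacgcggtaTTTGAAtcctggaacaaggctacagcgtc
CKS2 (chr9:89311045-89311194, plus strand): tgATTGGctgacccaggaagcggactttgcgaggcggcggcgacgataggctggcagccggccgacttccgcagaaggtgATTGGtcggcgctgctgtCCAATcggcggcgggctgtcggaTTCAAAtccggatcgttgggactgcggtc
CKS1B (chr1:154974531-154974680, plus strand): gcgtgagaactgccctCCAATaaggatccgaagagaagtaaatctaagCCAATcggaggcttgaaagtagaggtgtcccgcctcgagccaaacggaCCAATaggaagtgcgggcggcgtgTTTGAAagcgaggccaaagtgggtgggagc
CCNA2 (chr4:121823884-121824033, minus strand): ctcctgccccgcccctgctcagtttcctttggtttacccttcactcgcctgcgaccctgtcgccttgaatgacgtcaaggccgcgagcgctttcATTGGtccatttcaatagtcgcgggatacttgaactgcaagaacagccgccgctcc

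A CHR core was found in 25 of the 32 genes with a window (78.1%), beside 15.1% of 9913 tested genes with a window and 19.5% of all 27305 genes in the promoter table. It lay within the 75 bases before the start in 18 genes (56.2%), beside 3.06% of the tested genes, a distance that was chosen after the positions had been seen. These near matches numbered 22 and began at a median of 29 bases before the start, as in PLK1, CCNB2 and CKS2 above. A CCAAT box was found in 28 genes (87.5%, beside 43.6% of tested genes), at least 2 in 19 genes (59.4%, beside 16.5%), and both elements in 23 genes (71.9%, beside 6.41%). E2F cores were found in 3 genes (9.38%, beside 5.75%).

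The elements were present in genes of either direction. A CHR core was present in 13 of the 14 higher genes with a window, 4 of the 5 lower genes and 8 of the 13 uncalled genes. Within the 75 bases before the start it was present in 10 of the 14 higher, 4 of the 5 lower and 4 of the 13 uncalled genes, a split that was not tested. The higher genes without one there were BUB1, CENPE, CENPF and TOP2A, and none of them is among the stretches printed above. CKS1B, which was not called, and its paralog CKS2, which fell, each had a CHR core about as far from the start and 3 CCAAT boxes in the stretch printed above. In CCNA2 and CCNB1 the CHR letters searched for were not found in the window. No other spelling of the CHR core was searched for, so genes counted without one may hold another form. A match to a few letters is a description of the sequence and shows neither binding nor a cause.

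FOXM1, the forkhead transcription factor that drives many genes of this set, rose. FOXM1 (ENSG00000111206.12, chr12:2857681-2877155, minus strand, coordinates of GENCODE 29 on GRCh38 here and below) was at 299.5, 296, 298 and 300.1 CPM in control replicates 1 to 4 and at 349, 343, 343 and 345 CPM in ELAPOR1 replicates 1 to 4. The control libraries lay within a narrow band and all 4 ELAPOR1 libraries were above it (log2 change 0.21 with an SE of 0.0282, adjusted p = 1.8e-07 by edgeR). Of its exonic bases, 15.9% overlap ITFG2 on the other strand, and since use of strand in counting is not given in the sources used here, its level carries that uncertainty.

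The cyclin-CDK switch was the role in which falls were most frequent, with 4 of its 8 genes lower, 1 higher and 3 not called (median log2 fold change -0.058). CDC25C, a phosphatase that activates cyclin B-CDK1 at mitotic entry, fell most. CDC25C (ENSG00000158402.20, chr5:138285265-138338355, minus strand) was at 46.6, 50.5, 43.7 and 50.5 CPM in control and 41.9, 38.7, 38.7 and 37.0 CPM in ELAPOR1 libraries. Its highest ELAPOR1 library was below its lowest control library (log2 change -0.29 with an SE of 0.0565, adjusted p = 6.8e-05 by edgeR), and 8.78% of its exonic bases overlap FAM53C on the other strand. CDC25B, a phosphatase of the same family that acts earlier at the centrosome, went from 157 ± 4.22 to 144 ± 7.85 CPM (mean ± SD, n = 4 each, here and below) without overlap (log2 change -0.13 with an SE of 0.0373, adjusted p = 0.00507 by edgeR). This call was lost without ELAPOR1 replicate 1 (log2 fold change -0.091, edgeR adjusted p = 0.0559).

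CKS2, a small subunit that binds CDK1 and helps it dock on phosphorylated substrates, fell while its close paralog CKS1B did not pass the test. CKS2 (ENSG00000123975.5, chr9:89311198-89316703, plus strand) was at 125, 135, 133 and 141 CPM in control and 112, 109, 113 and 118 CPM in ELAPOR1 libraries. All ELAPOR1 values were below all control values (log2 change -0.24 with an SE of 0.0386, adjusted p = 3.9e-06 by edgeR). CKS1B was at 127, 141, 137 and 151 CPM in control and 144, 144, 141 and 139 CPM in ELAPOR1 libraries, which overlapped (log2 fold change 0.033, 95% interval -0.048 to 0.11). With trends on GC content and transcript length removed (below), CKS2 was at -0.11 and still called lower, and CKS1B was called higher at 0.10. The ratio of CKS2 to CKS1B within a library was 0.935 to 0.988 in control and 0.758 to 0.844 in ELAPOR1 libraries, a pair of ranges that do not overlap. The ratio of CDC25C to CDC25B overlapped between the groups, at 0.288 to 0.318 in control and 0.245 to 0.315 in ELAPOR1 libraries. Ratios of 5 pairs of related genes were taken after the values had been seen and were not tested.

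The B-type cyclins were also called differently. CCNB2, the cyclin found mainly at the Golgi, was at 179, 196, 193 and 192 CPM in control and 164, 167, 170.5 and 178 CPM in ELAPOR1 libraries and fell without overlap (log2 change -0.16 with an SE of 0.0349, adjusted p = 3.2e-04 by edgeR). CCNB1, the main partner of CDK1 at mitotic entry, ranged from 387 to 406 CPM in control and 387 to 405 CPM in ELAPOR1 libraries and was not called (log2 fold change 0.012, 95% interval -0.046 to 0.071). The ratio of CCNB2 to CCNB1 was 0.462 to 0.505 in control and 0.411 to 0.440 in ELAPOR1 libraries. CCNA2, the cyclin of S phase and early mitosis, was also not called, at means of 117 and 119 CPM (95% interval -0.051 to 0.11). CDK1, the kinase itself, rose from 209 ± 5.31 to 221 ± 2.33 CPM (log2 change 0.081 with an SE of 0.0309, adjusted p = 0.0329 by edgeR), a call close to the threshold that was lost in 9 of 20 other settings.

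PLK1, a kinase that drives mitotic entry, centrosome maturation and cytokinesis, rose most of all 39 genes. PLK1 (ENSG00000166851.15, chr16:23677656-23690367, plus strand) was at 82.0, 89.3, 81.7 and 91.5 CPM in control and 126, 126, 122 and 118 CPM in ELAPOR1 libraries. The groups were far apart relative to their spread (log2 change 0.51 with an SE of 0.0413, adjusted p = 2.7e-12 by edgeR). PLK1 lies on the short arm of chromosome 16, and the 20 well-expressed genes nearest to it (10 on each side, each with a mean level of 5 CPM or more) had log2 fold changes with a median of 0.45, beside its own 0.51. The part of the chromosomal neighbourhood in the rise was not tested, and 11.6% of its exonic bases overlap the antisense transcript AC008870.3.

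The other genes of this role had smaller values. TPX2, which targets and activates Aurora A on spindle microtubules, rose from 418 ± 4.81 to 457 ± 10.4 CPM without overlap (log2 change 0.13 with an SE of 0.0281, adjusted p = 2.5e-04 by edgeR). AURKA, the Aurora A kinase that TPX2 activates, was at 196 and 196 CPM and was not called (95% interval -0.066 to 0.060).

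Of the 5 spindle assembly checkpoint genes, BUB1 rose and 4 were not called. BUB1 (ENSG00000169679.14, chr2:110637698-110678114, minus strand), a kinase that recruits checkpoint proteins to unattached kinetochores, was at 248, 229.9, 229 and 229.7 CPM in control and 285, 282, 283 and 298 CPM in ELAPOR1 libraries. Control replicate 1 and ELAPOR1 replicate 4 stood above the other libraries of their groups, and the groups did not overlap (log2 change 0.29 with an SE of 0.0321, adjusted p = 2.5e-09 by edgeR). BUB1B, which encodes the checkpoint protein BubR1, was at 152 and 151 CPM (95% interval -0.091 to 0.059), and the ratio of BUB1 to BUB1B was 1.43 to 1.59 in control and 1.83 to 1.97 in ELAPOR1 libraries. The other three, the checkpoint proteins BUB3 and MAD2L1 and the kinase TTK, had log2 fold changes of 0.033, 0.0065 and 0.028.

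The anaphase promotion genes moved in both directions. UBE2C, the ubiquitin-conjugating enzyme of the anaphase-promoting complex, rose from 114 ± 2.71 to 129 ± 3.16 CPM without overlap (log2 change 0.17 with an SE of 0.0359, adjusted p = 2.5e-04 by edgeR). CDC20, the activator of that complex in mitosis, rose from 129.7 ± 1.17 to 139 ± 6.86 CPM with overlapping groups (log2 change 0.096 with an SE of 0.0366, adjusted p = 0.0317 by edgeR), a call that was lost in 6 of 20 other settings. PTTG1, which encodes securin, a substrate of the complex that holds separase inactive, was at 159, 174, 164 and 169.9 CPM in control and 152, 139.7, 145 and 149 CPM in ELAPOR1 libraries. PTTG1 fell, with every ELAPOR1 library below every control library (log2 change -0.18 with an SE of 0.0359, adjusted p = 7.3e-05 by edgeR). Reads of PTTG1 may be shared with its close copies elsewhere in the genome.

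In the chromosomal passenger complex, which corrects wrong attachments and later acts at the midzone, INCENP rose from 84.0 ± 4.29 to 94.8 ± 2.96 CPM without overlap (log2 change 0.18 with an SE of 0.0421, adjusted p = 8.7e-04 by edgeR). INCENP is the scaffold of the complex. BIRC5, the survivin subunit, was called higher (from 182 ± 6.15 to 193 ± 5.15 CPM, log2 change 0.081 with an SE of 0.0333, adjusted p = 0.0463 by edgeR), but its groups overlapped and the call was lost in 12 of 20 other settings. AURKB, the kinase of the complex, was at 54.7 and 55.0 CPM and was not called (95% interval -0.13 to 0.14). The ratio of AURKB to AURKA was 0.255 to 0.300 in control and 0.244 to 0.312 in ELAPOR1 libraries, which overlapped.

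At the centromere and kinetochore, the long coiled-coil genes rose. CENPF (ENSG00000117724.13, chr1:214603195-214664588, plus strand), which encodes a large kinetochore protein, was at 396, 370.1, 373 and 349 CPM in control and 428, 468, 436 and 464 CPM in ELAPOR1 libraries. Every ELAPOR1 library was above every control library (log2 change 0.27 with an SE of 0.0349, adjusted p = 2.2e-07 by edgeR). CENPE, a kinetochore motor that moves chromosomes to the spindle equator, rose from 117 ± 12.2 to 137 ± 7.01 CPM but its groups overlapped (log2 change 0.23 with an SE of 0.0682, adjusted p = 0.0196 by edgeR). CENPA, the histone variant that marks centromeres, was at 50.5 and 53.1 CPM and was not called (95% interval -0.028 to 0.18).

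Among 6 spindle motor and microtubule-binding genes, 3 rose and 3 were not called. KIF11 (ENSG00000138160.6, chr10:92593286-92655395, plus strand), the motor that pushes spindle poles apart, was at 210.1, 201, 190.5 and 192 CPM in control and 246, 251, 258 and 255 CPM in ELAPOR1 libraries, with no overlap (log2 change 0.35 with an SE of 0.0331, adjusted p = 1.4e-10 by edgeR). KIF4A (ENSG00000090889.12, chrX:70290090-70420832, plus strand), a motor of chromosome arms and the midzone, was at 133, 136, 134 and 136 CPM in control and 168, 175, 162 and 171 CPM in ELAPOR1 libraries (log2 change 0.33 with an SE of 0.0339, adjusted p = 9.0e-10 by edgeR). The control libraries of KIF4A spanned only a few CPM, and all ELAPOR1 libraries were well above them.

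HMMR (ENSG00000072571.20, chr5:163460203-163491945, plus strand), a hyaluronan receptor that also binds spindle microtubules, also had a narrow control range. It was at 85.1, 84.1, 84.7 and 83.8 CPM there and at 103, 106, 101 and 105 CPM in ELAPOR1 libraries (log2 change 0.30 with an SE of 0.0380, adjusted p = 7.6e-08 by edgeR). The microtubule depolymerase KIF2C, the microtubule-bundling protein NUSAP1 and the spindle protein DLGAP5 had log2 fold changes of 0.025, 0.032 and 0.034 and were not called. Of the exonic bases of NUSAP1, 62.2% are shared with AC087721.2 on the same strand, so its count is uncertain.

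In the midzone and cytokinesis role, ANLN and KIF23 rose and 3 genes were not called. ANLN (ENSG00000011426.11, chr7:36389806-36453791, plus strand) encodes anillin, which links the actomyosin ring to the cell cortex. It was at 558, 536, 514 and 497 CPM in control and 668, 662, 675 and 678 CPM in ELAPOR1 libraries. The control libraries of ANLN were more spread than its ELAPOR1 libraries and still lay below all of them (log2 change 0.35 with an SE of 0.0305, adjusted p = 1.8e-11 by edgeR). KIF23, a subunit of the centralspindlin complex, rose from 225 ± 8.12 to 242 ± 3.34 CPM without overlap (log2 change 0.10 with an SE of 0.0316, adjusted p = 0.00728 by edgeR). The mitotic kinesin KIF20A, the midzone organiser PRC1 and the RhoA exchange factor ECT2 had log2 fold changes of 0.059, 0.039 and 0.074, and 57.6% of the exonic bases of PRC1 are shared with AC068831.7.

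Both genes of chromosome structure rose. MKI67 (ENSG00000148773.14, chr10:128096659-128126385, minus strand) encodes Ki-67, the proliferation marker that coats mitotic chromosomes, and was at 696, 682, 662 and 612 CPM in control and 871, 902, 845 and 896 CPM in ELAPOR1 libraries. All ELAPOR1 libraries were above all control libraries (log2 change 0.41 with an SE of 0.0328, adjusted p = 2.7e-11 by edgeR). TOP2A (ENSG00000131747.15, chr17:40388516-40417950, minus strand), the topoisomerase that untangles sister chromatids, was at 409.6, 379, 371 and 349.6 CPM in control and 485, 478, 471 and 491 CPM in ELAPOR1 libraries, again without overlap (log2 change 0.35 with an SE of 0.0349, adjusted p = 2.0e-09 by edgeR). The 20 well-expressed genes nearest to TOP2A had a median log2 fold change of 0.15, beside its own 0.35, and those nearest to KIF11 and BUB1 had medians of 0.16 and 0.11. For CDK1 the median of the nearest genes was 0.093, above its own 0.081. The part of the neighbourhood in these changes was not tested.

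**Figure D2:**
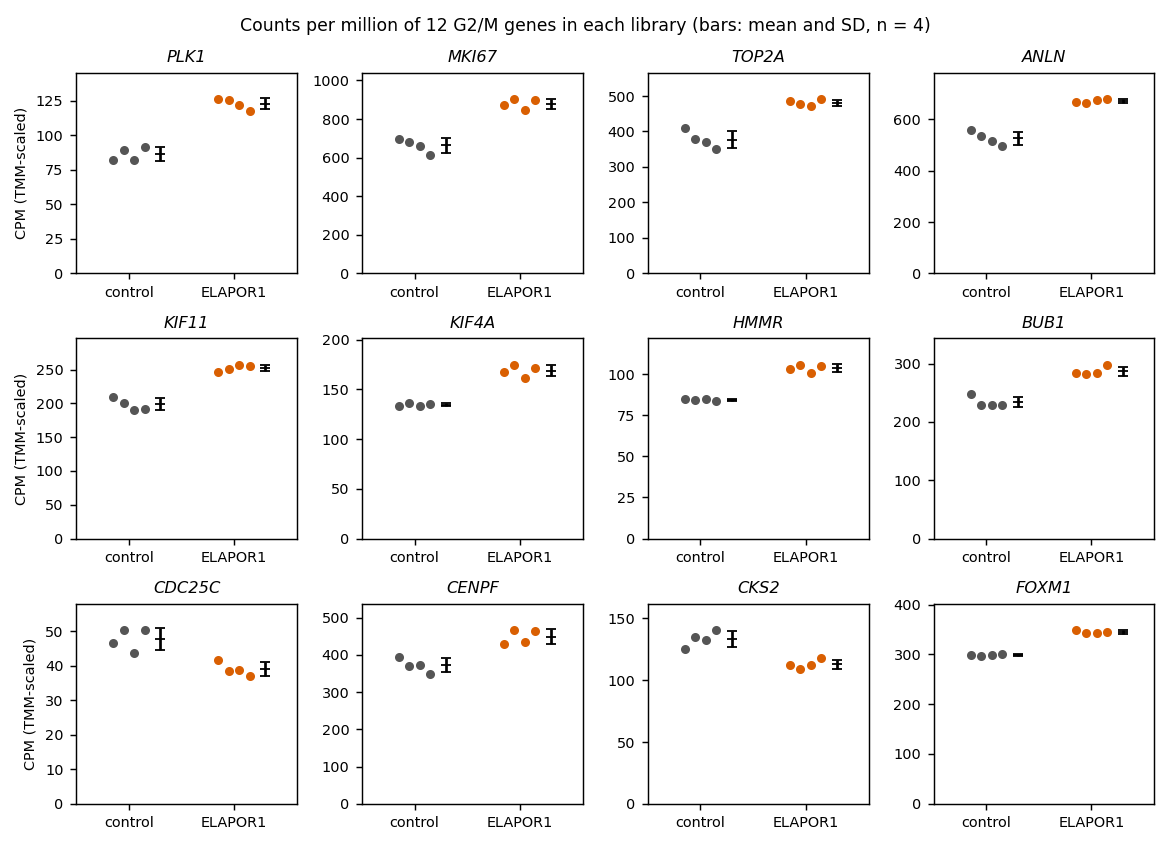
TMM-scaled CPM (y axis, from 0) of the 12 G2/M genes with the largest called changes and no overlap, one point per library, control left and ELAPOR1 right, with bars for the mean and SD (n = 4 each). In 10 panels the ELAPOR1 points lie above the control points, and for CDC25C and CKS2 they lie below.

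The 16 uncalled genes were CCNA2, CCNB1, CKS1B, AURKA, BUB1B, BUB3, MAD2L1, TTK, AURKB, CENPA, KIF2C, NUSAP1, DLGAP5, KIF20A, PRC1 and ECT2. Their 95% intervals reached from -0.13 to 0.18 at the widest, so log2 changes beyond these bounds were outside every interval. ECT2 was nearest to the threshold (edgeR adjusted p = 0.0664) and was called higher in 3 of 20 other settings.

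The genes also differed in level. Per kilobase of exon, control levels were highest for CKS2 (218 CPM per kb), CCNB1 (154) and TPX2 (116), followed by UBE2C (89.0) and ANLN (87.6). They were lowest for CENPE (12.4), MAD2L1 (13.6), CDC25C (14.3) and PLK1 (18.1). The gene with the largest rise and the gene with the largest fall were therefore both among the 4 lowest on this scale.

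Longer transcripts tended to have higher log2 fold changes among these genes. Across the 39 genes the log2 fold change and the log2 length of the longest annotated transcript had a Pearson r of 0.562 and a Spearman rho of 0.545. Across 13833 tested genes with a length the values were 0.125 and 0.144, and across 135 other mitotic genes 0.109 and 0.194. These are descriptions across genes measured in the same libraries. The median longest transcript was 3844 bases for the higher genes, 2964 for the uncalled and 2137 for the lower genes, beside 3456 over all tested genes.

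Length also moved with a difference inside the control group. Control replicate 1 had the highest control value for 14 of the 39 genes and the lowest for 12, and control replicate 4 had the highest for 11 and the lowest for 14. For the long genes MKI67, TOP2A, ANLN, CENPF and CENPE replicate 1 was highest and replicate 4 lowest. Not every long gene had this order. BUB3 and MAD2L1 both have a longer transcript than ANLN, but BUB3 was highest in control replicate 4 and MAD2L1 was lowest in control replicate 1. The log2 difference of control replicate 1 from control replicate 4 had a Pearson r with length of 0.671 across the 39 genes and 0.249 across all tested genes. With each library's trends on GC content and length removed, 25 genes were called (20 higher, 5 lower, 64.1%, beside 46.8% of all tested genes), and all 18 higher and 5 lower genes kept their call. Among the 23 genes called without this adjustment, the values of 5 moved by more than 1.5 times, with CKS2 from -0.24 to -0.11 (edgeR adjusted p = 0.00688) and PTTG1 from -0.18 to -0.11 (edgeR adjusted p = 0.00193). UBE2C moved from 0.17 to 0.25, CDC20 from 0.096 to 0.16 and CDK1 from 0.081 to 0.13, and CKS1B and CENPA were newly called higher, at 0.10 and 0.12. The part of transcript length in the changes beyond this adjustment was not tested.

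**Figure D3:**
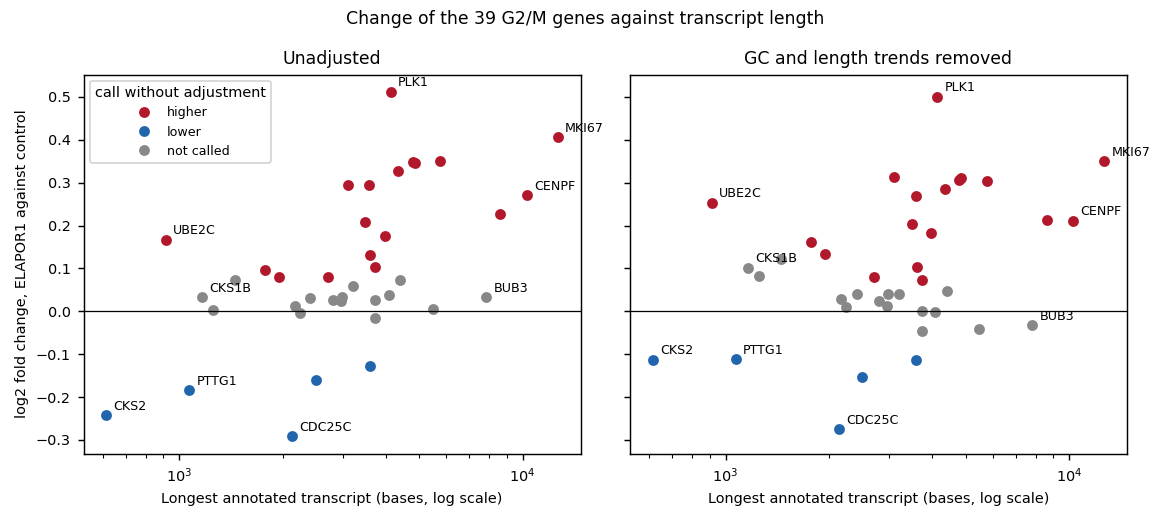
Log2 fold change (y axis, ELAPOR1 against control) of the 39 G2/M genes against the length of their longest annotated transcript (x axis, bases, log scale), without adjustment on the left and with GC and length trends removed on the right. CKS2 and PTTG1, short and lower, moved to -0.11 in the right panel, and PLK1 and MKI67 remained the highest.

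Other genes of mitosis came from lists of the same pathway, also chosen with earlier results of these data known. These genes rose more often than they fell. Of 135 such genes 68 rose, 17 fell and 50 were not called, with a median log2 fold change of 0.11. Counts of this and every list below stand beside 22.6% higher and 22.1% lower among all 13860 tested genes. Among the 5105 tested genes at or above the level of the lowest G2/M gene the shares were 33.3% and 27.6%. No list was tested against these shares. Values below are log2 fold changes of called genes. In the spindle and cytokinesis list 18 of 25 genes rose and 2 fell, with 0.43 for KIF18B, 0.39 for FAM83D and 0.35 for KIF20B as the largest changes. In the kinetochore list 13 of 33 rose and 2 fell, with 0.44 for CENPO and -0.36 for CENPH. Of the condensin genes, which compact chromosomes, 5 of 8 rose and the other 3 were not called, and of the cohesin and separase genes 8 of 14 rose and 1 fell.

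The regulators of entry and exit were mixed. In the mitotic entry list 8 of 16 genes rose and the rest were not called. The largest change was 0.36 for CDC25A, the family member of CDC25B and CDC25C that acts mainly at the start of S phase. This list also holds other genes with roles outside mitotic entry, so its count is not one of entry regulators alone. In the anaphase-promoting complex list 7 of 17 rose and 4 fell, with 0.41 for FZR1, its activator at mitotic exit, and 0.38 for FBXO5, its inhibitor. The list of MuvB and pocket proteins, which act at promoters of cell cycle genes, also holds MYB, E2F and DP factors. In this mixed list 6 of 13 rose and 3 fell, with 0.44 for RBL1, 0.35 for MYBL1 and -0.49 for E2F5. MYBL2, which encodes B-MYB, was called higher at 0.13 with overlapping groups (edgeR adjusted p = 0.0281).

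In the G2 checkpoint list 3 of 9 genes rose and 5 fell. CCNG2, an unconventional cyclin linked to cell cycle arrest, fell from 40.0 ± 3.50 to 16.05 ± 1.94 CPM (log2 change -1.31 with an SE of 0.0772, adjusted p = 5.5e-15 by edgeR). CDKN1A, the p21 inhibitor of cyclin-dependent kinases, rose from 16.2 ± 0.755 to 28.2 ± 2.21 CPM (log2 change 0.80 with an SE of 0.0733, adjusted p = 5.9e-11 by edgeR). For both, the change was larger than that of any of the 39 G2/M genes.

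Genes of DNA replication and G1 are given beside them, again with 22.6% higher and 22.1% lower over all tested genes as the background. Of 36 replication genes 24 rose and 1 fell, with a median log2 fold change of 0.18, and the largest were 0.62 for UHRF1, 0.54 for GINS2 and 0.49 for POLA1. Of 16 G1 genes 8 rose and 4 fell, with 0.78 for E2F2 and -1.32 for CCND2. Whether these lists differ from the G2/M genes was not tested.

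**Figure D4:**
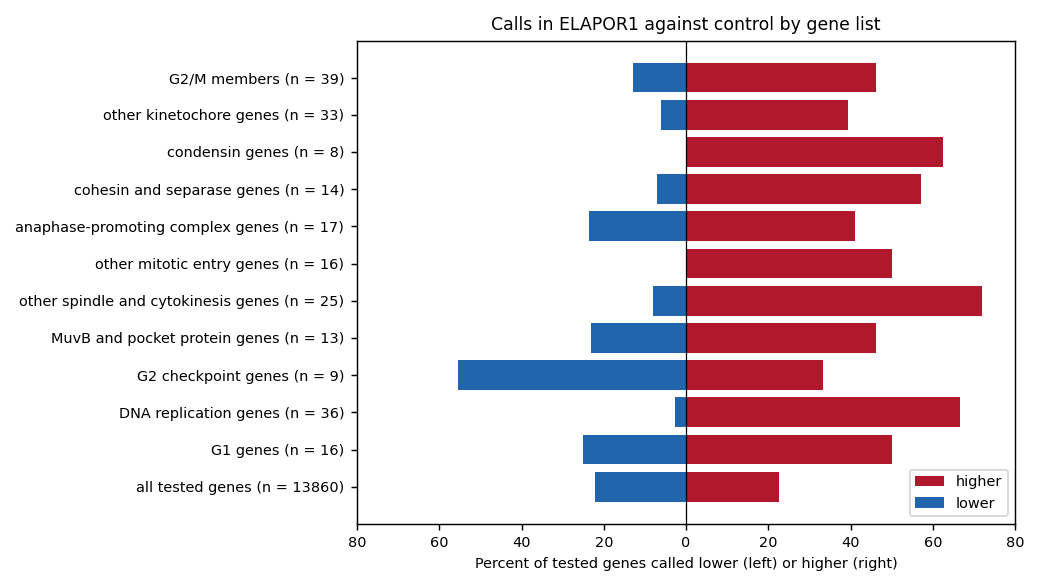
Percent of tested genes called higher (right, red) or lower (left, blue) in ELAPOR1 against control for the 39 G2/M genes, other cell cycle lists and all 13860 tested genes. The G2/M bar reaches 46.2% higher and 12.8% lower, beside 22.6% and 22.1% over all tested genes.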

How the data were processed

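RNA sequencing of 4 control and 4 ELAPOR1 libraries was analysed from 1 table of expected counts per gene, deposited by the authors. The submitters' processing notes name cutadapt, STAR, RSEM, DESeq2 and hg38. Neither the annotation release nor the strand setting is given in the sources used here. Expected counts (15% of nonzero values not whole) were rounded, and the test was that of edgeR 4.0.16 (R 4.3.3) (filterByExpr, TMM, robust quasi-likelihood test, two-sided, no covariate), with Benjamini-Hochberg adjustment over 13860 genes. CPM values are TMM-scaled, and log2 fold changes are ELAPOR1 against control. Gene positions and lengths are from GENCODE 29, in which 58597 of the 58870 identifiers were found, and promoters are from RefSeq.

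The members and lists were chosen with earlier results of these data known. All 39 members are accounted for. Values in every library are given for the 12 called members with the largest change and no overlap, and for others in brief. Of each other list, called genes were taken from the 3 with the largest change and a mean of at least 5 CPM, apart from MYBL2, which was added for its role. Alternatives were other scalings (DESeq2 size factors, total count, upper quartile), DESeq2 1.42.0, limma-voom (limma 3.58.1), other filters and thresholds, glmTreat at 1.2-fold, GC and length trends removed, shared chromosomal regions left out, the replicate block, and each library left out. A further pair of alternatives were chosen after seeing the data. The shared chromosomal regions are the short arms of chromosomes 16 and 18 and a stretch of the long arm of chromosome 17. They hold PLK1, TOP2A and, of the other mitotic genes named, KIF18B. On simulated counts for 13860 genes, edgeR called 62% of genes changed 1.2-fold, 80% at 1.5-fold, 94% at 2-fold and 100% at 4-fold (50 genes each), with 4 false calls. The changed genes were few, reached down to low counts and shared a single dispersion. These shares therefore do not give the power for the 39 genes. Plots were drawn with matplotlib 3.10.9.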

Additional observations from a re-analysis of the deposited data

Results flagged for a closer look

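BUB1 stood out in one library of each group. In ELAPOR1 replicate 4 it was at 298 CPM (298.45), beside 282 to 285 CPM in the other 3 ELAPOR1 libraries, a gap of 0.850 of the range of the group. In control replicate 1 it was at 248 CPM (247.53), beside 229.4 to 229.9 CPM in the other 3, a gap of 0.974 of the range. INCENP was at 90.4 CPM in control replicate 1, beside 81.2 to 82.5 CPM in the other 3 control libraries, a gap of 0.860. A library was singled out where this gap passed 0.829, the Dixon 95% critical value for 4 values. This was so in 3 of 78 groups examined, and chance gives about 3.9. BUB1 and INCENP kept their calls without each of these libraries.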

How the results depend on the processing

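Of the 39 genes, 24 had the same call and direction in 20 other settings (15 higher, 4 lower, 5 not called), which leave out the 1.2-fold test, the stricter threshold and the removal of shared regions. At an adjusted p under 0.01, 19 were called by edgeR (14 higher, 5 lower), with CDK1, CDC20, BIRC5 and CENPE lost. Of all 13860 tested genes, 4682 passed that threshold (2392 higher, 2290 lower). Against a 1.2-fold change (glmTreat) the count of called genes fell from 23 to 5 for the G2/M genes, from 6193 to 1545 for all genes, from 85 to 15 for other mitotic genes and from 37 to 9 for replication and G1 genes, a stricter question by construction. Leaving out each library gave 19 to 23 G2/M genes, 5557 to 6316 of all genes, 77 to 86 other mitotic genes, 34 to 39 replication and G1 genes, and a log2 fold change of ELAPOR1 of 11.15 to 11.75. The median log2 fold change of the G2/M genes, 0.074, was 0.095 with total count scaling, 0.059 without the shared chromosomal regions, 0.056 without control replicates 1 and 4 (chosen after seeing the data), and 0.058 to 0.077 with each library left out, the lowest being without ELAPOR1 replicate 3 and without control replicate 1. Without control replicates 1 and 4, 22 G2/M genes were called (17 higher, 5 lower). Of all 14191 genes tested there, 5791 were called (2892 higher, 2899 lower). The causes were not tested.

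Same-numbered libraries did not deviate together (r from -0.0213 to 0.0326), so no pairing was visible. The labels do not say whether same-numbered libraries were handled together, and this check cannot decide it. With the replicate block 20 G2/M genes (15 higher, 5 lower) and 5926 of all genes were called, and with the block and GC and length trends removed together 25 G2/M genes and 6364 of all genes. Calls of CDK1, CDC20 and BIRC5 were lost under the block.

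The sign of 9 genes near 0 changed, and none of the 9 was called in a fit that changed its sign. For AURKA it was 0.018 with total count scaling, 0.011 with GC and length trends removed, 0.011 with the replicate block added to that, and -0.010 to 0.0062 with each library left out. BUB1B was 0.0056 with total count scaling and -0.042 to 0.012 with each library left out. BUB3 was -0.032 with the trends removed, with the block or not. MAD2L1 was -0.0018 with upper-quartile scaling, -0.042 with the trends removed, -0.041 with the block added, -0.041 without control replicates 1 and 4, and -0.025 to 0.045 with each library left out. AURKB was -0.0042 with upper-quartile scaling, -0.011 without control replicates 1 and 4, and -0.041 to 0.064 with each library left out. TTK was -0.00030 with the trends removed and -0.010 without control replicates 1 and 4, and PRC1 was -0.00047 with the trends removed and -0.0012 with the block added. With each library left out CCNB1 ran from -0.0023 to 0.026 and CKS1B from -0.014 to 0.075.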

Other observations

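Promoter letters differed between lists of the cell cycle. Among 115 other mitotic genes with a RefSeq window, 51.3% held a CHR core, 62.6% a CCAAT box and 14.8% an E2F core. Among 32 DNA replication genes with a window, 3 (9.38%) held a CHR core, none of them within the 75 bases before the start, while 17 (53.1%) held an E2F core and 19 (59.4%) a CCAAT box. Among the 32 mitotic G2/M genes with a window the corresponding shares were 78.1%, 9.38% and 87.5% for CHR, E2F and CCAAT. These shares are descriptions of sequence and were not tested.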
